A study of Mus musculus with 5 samples.

Results

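Fcer1g was above 0 together with Klre1, Klra9 or both in 61 of 13629 OT-I CD8+ T cells (0.448%). These cells were selected on the values of those 3 genes, so their levels of Fcer1g, Klre1 and Klra9 describe the choice and support nothing. Fcer1g encodes the common gamma chain of Fc receptors, an adaptor with an immunoreceptor tyrosine-based activation motif (ITAM). Klre1 and Klra9 encode lectin-like receptors of the natural killer (NK) gene complex, NKR-E1 and a Ly49 receptor. The cells are called Fcer1g+ receptor+ cells below, and every other cell of the same library is the comparison.

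The T cells came from spleen and lymph nodes of C57BL/6-Tg(TcraTcrb)1100Mjb/J mice, the OT-I strain, in which a transgenic T cell receptor recognises the SIINFEKL peptide of ovalbumin on H-2Kb. All groups carried this transgene, and no age, sex or number of pooled animals was named in the labels. CD8+ T cells were sorted at 0 h, or at 24 h and 72 h of co-culture with peptide-pulsed dendritic cells (DCs), either alone or with myeloid-derived suppressor cells (MDSCs), a mixed population of immature myeloid cells that restrains T cells. There was 1 10x library per condition, hence no replicate, no test and no p-value for any difference.

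A minority of CD8+ T cells express receptors better known from NK cells. Such cells are described among virtual memory cells, which acquire a memory phenotype without meeting foreign antigen, and among innate-like CD8+ T cells that use the Fc receptor gamma chain next to the CD3 chains. Lectin-like receptors of the NK complex bind MHC class I or stress-induced ligands, and pair with adaptors such as DAP12 (Tyrobp) and DAP10 (Hcst) when they activate.

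Levels are given as adjusted CPM, summed adjusted counts per 1000000. Each deposited natural log value turned back into a whole number after 1 was taken off, and this number is called an adjusted count because a cell's numbers sum to nearly the same total everywhere and are not molecules. The pooled level of the Fcer1g+ receptor+ cells was set against the other cells of each library, weighted by how many Fcer1g+ receptor+ cells that library gave. A gene was counted as different when the ratio was at least 2-fold and the level reached 50 CPM on either side.

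Several receptor genes that were higher in these cells lie side by side, so the sequence in front of them is shown for the rule genes and for Klrk1 and Klrc2, which the rule did not use. Each run holds 250 bases before to 50 bases after a RefSeq start site on GRCm38.p6, 5′ to 3′, and capitals mark matches to TGTGGT or its reverse complement ACCACA (the core that RUNX factors bind) and to TCACAC or GTGTGA (a T-box core).
Fcer1g, chr1:171234300-171234599, minus strand: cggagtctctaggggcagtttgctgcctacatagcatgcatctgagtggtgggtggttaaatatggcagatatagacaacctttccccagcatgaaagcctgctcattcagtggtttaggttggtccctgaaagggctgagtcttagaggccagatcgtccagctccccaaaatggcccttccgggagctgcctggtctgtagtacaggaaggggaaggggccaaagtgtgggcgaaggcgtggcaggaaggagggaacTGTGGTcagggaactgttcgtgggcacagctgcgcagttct
Klre1, chr6:129577963-129578262, plus strand: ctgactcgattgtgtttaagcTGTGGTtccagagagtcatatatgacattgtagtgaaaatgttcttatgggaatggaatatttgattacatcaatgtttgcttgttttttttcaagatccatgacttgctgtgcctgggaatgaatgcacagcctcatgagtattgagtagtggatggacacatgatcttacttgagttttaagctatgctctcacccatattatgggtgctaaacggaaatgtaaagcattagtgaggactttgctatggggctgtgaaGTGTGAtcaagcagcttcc
Klrk1, chr6:129623815-129624114, minus strand: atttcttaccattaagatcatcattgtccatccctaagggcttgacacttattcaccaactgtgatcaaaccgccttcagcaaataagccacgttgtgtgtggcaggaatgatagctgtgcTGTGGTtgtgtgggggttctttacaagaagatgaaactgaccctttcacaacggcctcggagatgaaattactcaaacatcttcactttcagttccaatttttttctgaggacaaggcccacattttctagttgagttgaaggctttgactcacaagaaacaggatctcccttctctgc
Klrc2, chr6:129660547-129660846, minus strand: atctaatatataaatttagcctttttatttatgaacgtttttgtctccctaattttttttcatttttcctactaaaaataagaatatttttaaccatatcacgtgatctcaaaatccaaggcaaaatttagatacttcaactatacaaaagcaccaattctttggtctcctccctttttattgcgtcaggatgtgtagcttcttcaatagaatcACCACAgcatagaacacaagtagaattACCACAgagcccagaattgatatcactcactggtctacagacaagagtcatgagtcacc
Klra9, chr6:130193063-130193362, minus strand: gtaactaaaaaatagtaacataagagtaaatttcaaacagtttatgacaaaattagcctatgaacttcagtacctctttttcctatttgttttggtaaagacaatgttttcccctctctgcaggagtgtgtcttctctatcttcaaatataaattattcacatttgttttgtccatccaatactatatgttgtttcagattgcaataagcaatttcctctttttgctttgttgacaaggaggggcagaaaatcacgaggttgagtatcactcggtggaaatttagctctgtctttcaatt
The table held 9 of 12 genes looked up: Fcer1g, Klre1, Klra9, Klrk1, Gzma, Klrc1, Klra7, Klrb1c and Klrc2; Klrd1, Klrg1 and Ccl5 had no entry. A RUNX core was found in 8 of their 12 promoters, from 7 of the 9 genes, against 16.8% of all 32851 promoters of this length and 18.9% of all 27025 genes. Klra9 and Klra7 had none, and the window of Klre1 that is not printed held no RUNX core. A T-box core stood in 2 promoters, both of Klre1, against 14.5% of all promoters. The ETS string CCGGAAGT or ACTTCCGG stood in none of the 12, against 3.9% of all. Both windows of Klrc2 overlap, as do both of Klre1, and the NKG2 genes are copies, so these counts are not of independent sequences. The 12 genes looked up were rule genes or genes higher in these cells, so the shares describe that choice. Base composition was not matched, and enrichment was not tested. No match overlapped another, and a match is a string in this window, not a measured binding site.

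At 0 h, 35 of 2952 cells met the rule, a share of 1.19% (exact Clopper-Pearson 95% interval 0.827 to 1.65%). After 24 h, 8 of 1562 cells did so with DCs (0.512%, 0.221 to 1.01%) and 9 of 2247 with DCs and MDSCs (0.401%, 0.183 to 0.759%). After 72 h, 0 of 1926 cells met it with DCs (exact interval 0 to 0.191%), and 9 of 4942 did with DCs and MDSCs (0.182%, 0.0833 to 0.345%). The intervals cover counting error only. At both later times those of the cultures with and without MDSCs overlapped. The 0 h interval also overlapped that of 24 h with DCs and lay above those of the other libraries. A low adjusted count can be worth a different number of molecules in each library, and the part of this in the shares was not tested.

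**Figure D1:**
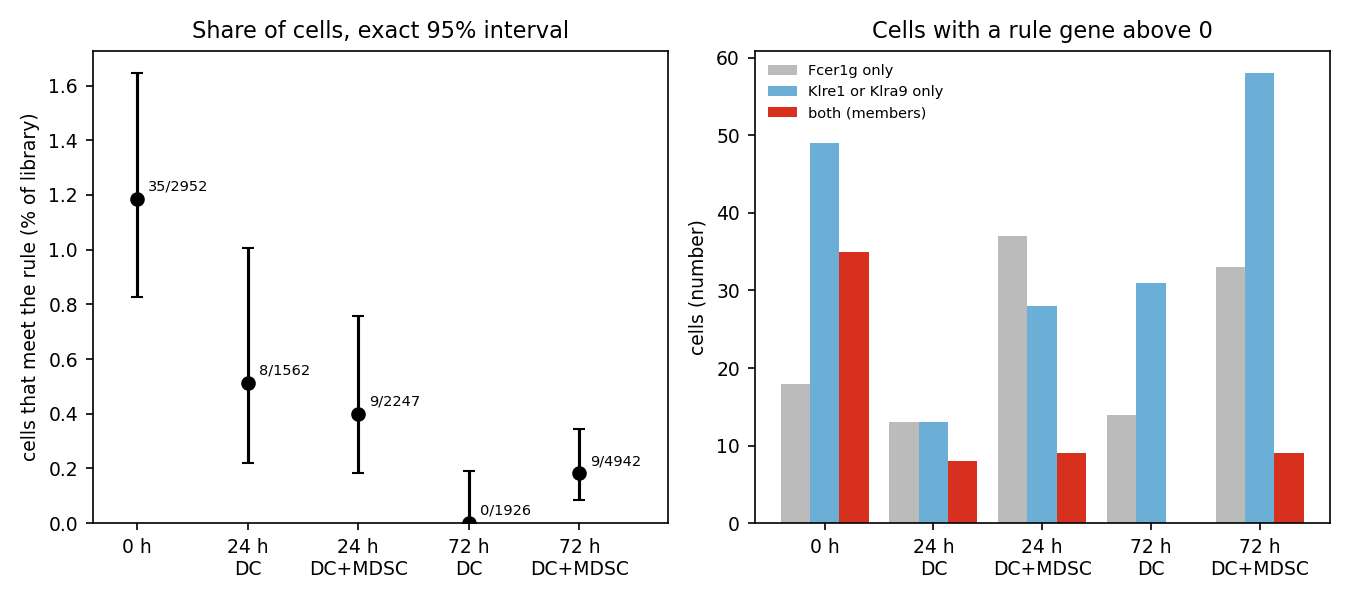
Left, percent of cells of each library with Fcer1g and Klre1 or Klra9 above 0 (points), with exact 95% intervals; right, number of cells with Fcer1g only, a receptor only, or both. The 0 h share of 1.19% is the highest, and the 72 h library with DCs has 31 receptor-only cells and no cell with both.

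Of the cells with Fcer1g above 0, those with a receptor made up 66.0% at 0 h, 38.1% at 24 h with DCs, 19.6% at 24 h with MDSCs and 21.4% at 72 h with MDSCs, against 1.69, 0.844, 1.27 and 1.18% of the cells without Fcer1g. In the 72 h library with DCs a receptor was found in 0 of 14 cells with Fcer1g and in 1.62% of the cells without it, and 14 cells are too few to show a difference from that share. Among the 61 cells, 28 had both receptors, 21 Klre1 only and 12 Klra9 only. Fcer1g stood at the threshold, an adjusted count of 1, in 7 of the 61. Just outside the rule, Fcer1g of 2 or more without either receptor was found in 14 cells at 0 h and in 1 to 5 cells of each other library.

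The Fcer1g+ receptor+ cells carried T cell transcripts. Cd3g, Cd3d and Cd8b1 were above 0 in all 61, Cd8a in 60 and Cd3e in 59, and at least 1 of Cd3e and Cd3g in every cell. Cd8a per cell ranged from 5 to 53 adjusted counts at 0 h (median 16), from 0 to 24 at 24 h with DCs (median 14), from 18 to 30 at 24 h with MDSCs (median 23) and from 2 to 23 at 72 h with MDSCs (median 10). The medians of the other cells were 8, 5, 6 and 9, so the cells were nearly alike at 72 h. Pooled, Cd8a, the alpha chain of the coreceptor, was at 1237 against 585 CPM and higher in 4 of 4 libraries, while Cd8b1, its beta chain, was at 1594 against 1376 CPM. Cd3g was at 1463 against 799 CPM and Cd3e at 614 against 375 CPM, both higher in 4 of 4 libraries.

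Cd4 was at 0 in all 61 cells, and so were the myeloid genes Lyz2, S100a8 and Fcgr3. Ncr1, which defines NK cells, Trdc of gamma delta T cells, Zbtb16 of NKT cells and the constant regions Trac and Trbc2 are not genes of the table used, so the label rests on Cd3 and Cd8, and the part of NK cells or doublets was not tested. Of 17 myeloid markers, 8 were at 0 in all 61 cells. The widely expressed Cst3 was above 0 in 60 of them, Ctss in 15, Lilrb4a in 13, Ms4a6c in 6, Ifitm2 in 5 and Ccr2 in 4. At least 2 of the list were above 0 in 52.5% of the Fcer1g+ receptor+ cells against 48.2% of the others. Cst3 was also above 0 in 84.4% of all other cells, so 1 more gene sufficed. At 10 CPM or more on either side, 4 of 6 myeloid markers were at least 1.5-fold higher and 1 was lower. At that level in the other cells, 1 of 3 was higher and 1 lower. Summed, the list was at 366 against 210 CPM, and at 842 against 313 CPM at 72 h with MDSCs. Of 10 genes listed as NK cell markers outside T cells, some of which are also found in effector T cells, at least 2 were above 0 in 59 of the 61 (96.7%) against 66.3% of the others. Irf8 was above 0 in all 61 and in 84.6% of all other cells, so 1 further gene was enough. That gene was Gzma in 42 cells, Cd7 in 35, Txk in 30, Klrb1c in 17, Il18rap in 12, and Eomes and Tyrobp in 6 each, with overlap. At 10 CPM or more on either side, 5 of 8 genes of this NK list were at least 1.5-fold higher and 1 was lower. At that level in the other cells, 2 of 5 were higher and 1 lower. Summed, the NK list was at 3818 against 474 CPM, with Gzma alone at 2875 against 23.4 CPM. At least 2 plasmacytoid markers were above 0 in 23.0% against 30.5%, and at least 2 dendritic cell markers in 4.92% against 5.32%. Of the B cell, mast cell and basophil, red cell and gamma delta T markers, no Fcer1g+ receptor+ cell had 2. Across libraries 110 barcodes recurred, 1 of them in an Fcer1g+ receptor+ cell.

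Of 2404 genes at 50 CPM or more, 140 were at least 2-fold higher in the Fcer1g+ receptor+ cells (5.82% of those compared) and 22 at least 2-fold lower (0.915%). Of the 140, 90 reached 50 CPM only in the Fcer1g+ receptor+ cells and could count in no other direction; of the 2046 genes at that level in the other cells, 50 were higher and 22 lower. The cells were chosen from the same values, so these shares describe the choice; 97 of the 140 and 14 of the 22 pointed the same way in all 4 libraries with such cells. Without the rule genes, and among genes at 50 CPM or more that were found in at least 10% of the cells, the largest ratios were those of Klrb1c, Klrg1, Gzma, Kcnj8 and Zeb2. The median log2 ratio over the 2404 genes was 0.23, and ribosomal and mitochondrial genes took 32.5% of the adjusted counts in these cells at 0 h against 48.0% in the others. Without them in the total the median was -0.06, with 129 genes higher and 160 lower, and with ratios centred on their median 87 were higher and 25 lower. Without the 0 h library, which gave 35 of the 61 cells, 184 were higher and 184 lower, and these shared 76 of the 140 and 6 of the 22, so most of the lower genes rest on 0 h.

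**Figure D2:**
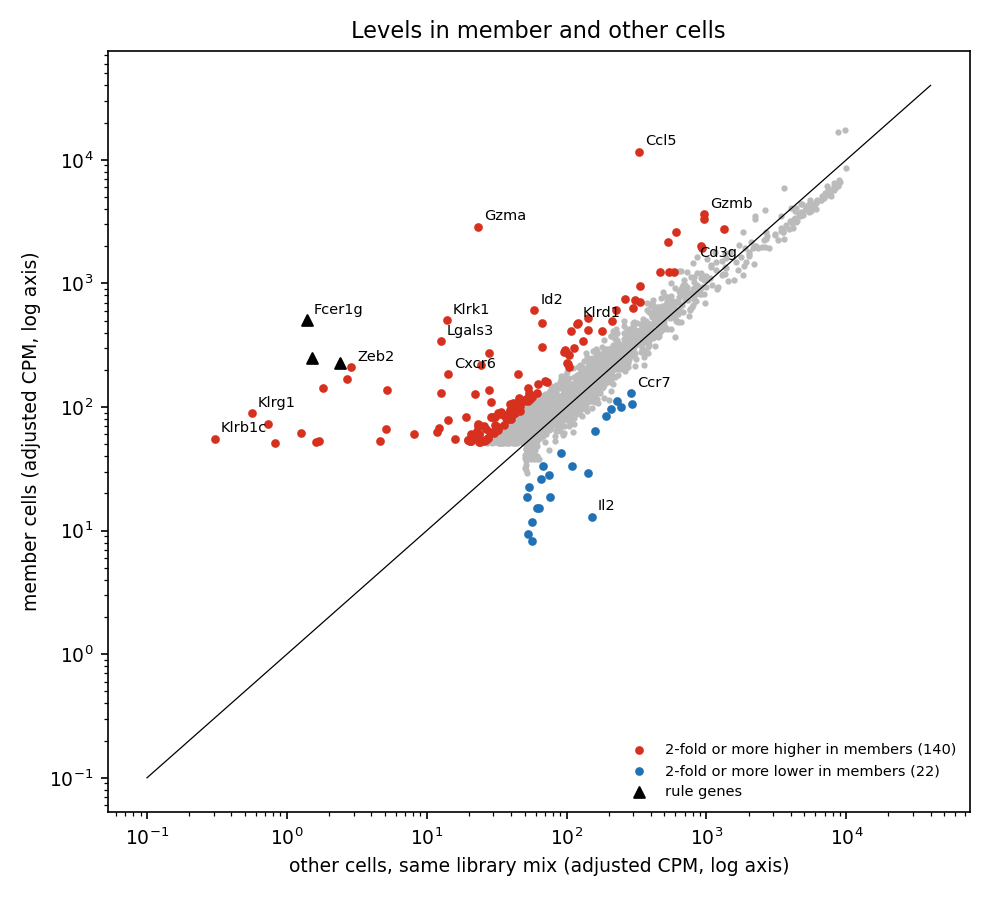
Adjusted CPM of every gene at 50 CPM or more in the 61 cells (vertical, log axis) against the other cells at the same library mix (horizontal, log axis); the line marks equal levels. Ccl5 at 11627 against 329 CPM and Gzma at 2875 against 23.4 CPM lie above the line, and Il2 lies below it.

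Lectin-like receptors outside the rule were found in most of the cells. Klrk1, which encodes NKG2D, a receptor for stress-induced ligands, was above 0 in 56 of 61 cells. At 0 h it ranged from 0 to 24 adjusted counts per cell with a median of 8, at 24 h with DCs from 0 to 9 (median 6), at 24 h with MDSCs from 1 to 8 (median 4) and at 72 h with MDSCs from 0 to 10 (median 4), where the median of the other cells was 0 in each library. Its level was 663, 341, 287 and 278 CPM in these libraries against 12.3, 4.22, 5.27 and 37.5 CPM, so the other cells came closest at 72 h. Some of the Fcer1g+ receptor+ cells stood at 0 in 3 of these libraries, where they overlapped with the other cells, and none did at 24 h with MDSCs.

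Klrd1 encodes CD94, the partner of the NKG2 chains. It was at 538 CPM at 0 h, 230 at 24 h with DCs, 311 at 24 h with MDSCs and 602 at 72 h with MDSCs, against 193, 5.58, 5.70 and 38.9 CPM in the other cells. Klrc1, which encodes the inhibitory chain NKG2A, was at 180, 128, 199 and 128 CPM against 2.99, 3.60, 2.77 and 0.80 CPM. Klrc2, the activating chain NKG2C, was found in 14 of the 61 cells, 9 of them at 0 h.

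Klrg1, an inhibitory receptor for cadherins and a mark of terminal effector cells, was above 0 in 14 of 35 cells at 0 h, 4 of 8 at 24 h with DCs, 3 of 9 at 24 h with MDSCs and 1 of 9 at 72 h. Pooled it was at 89.6 CPM against 0.56 CPM. Klrb1c, which encodes NK1.1, was at 55.4 CPM against 0.31 CPM and came from 17 cells, 13 of them at 0 h. Klra7, another Ly49 gene, was found in 7 cells and at 24.8 against 0.12 CPM, and Klra3 in none.

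Of 9 lectin-like receptors at 10 CPM or more on either side, 8 were at least 1.5-fold higher and none was lower, but 5 of the 9 reached that level only in the Fcer1g+ receptor+ cells, which fixes their direction. Of the 4 at 10 CPM in the other cells, Klrd1, Klrk1 and Clec2d were higher and Clec2i was not; their median log2 ratio was 1.39. Over all 6515 genes at 10 CPM on either side 1108 were higher (17%) and 1235 lower (19%), and over the 6047 at that level in the other cells 747 were higher (12.4%) and 1235 lower (20.4%), with a median of 0.003. For the lists below, the count over genes at 10 CPM in the other cells stands beside the first count where they differ, and medians are over those genes; that minimum was added after seeing the data. Of 7 receptors (Klrk1, Klrc1, Klrc2, Klrd1, Klrg1, Klrb1c and Klra7), at least 3 were above 0 in 43 of the 61 cells. The same held for 119 of the 13568 others (0.877%), all libraries pooled without weighting. The count was 26 of 35 cells at 0 h, 4 of 8 and 7 of 9 at 24 h, and 6 of 9 at 72 h. The shares of the others in these libraries were 1.37, 0.450, 0.849 and 0.831%. Klrc1, Klrc2, Klrg1, Klrb1c and Klra7 reached 10 CPM only in the Fcer1g+ receptor+ cells, and Klrg1 was picked for its ratio. These counts thus describe the choice.

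The NK gene complex spanned chr6:128609227-131247362 on GRCm38, 2638 kb from the first to the last Klr gene of the cluster in the GENCODE M21 annotation. Klre1 (chr6:129577905-129585827, plus strand), Klrd1 (chr6:129591782-129598775, plus strand), Klrk1 (chr6:129610323-129623864, minus strand), Klrc2 (chr6:129647496-129660689, minus strand) and Klrc1 (chr6:129666015-129678973, minus strand) are neighbours there, and Klra9 (chr6:130178675-130193112, minus strand) and Klra7 lie downstream. Without the rule genes, 22 genes of the complex were in the table and 13 reached 10 CPM. Of these, 5 reached it only in the Fcer1g+ receptor+ cells. Of the 8 at 10 CPM in the other cells, 4 were at least 1.5-fold higher and 1 was lower, 2310001H17Rik at 16.5 against 25.4 CPM, with a median log2 ratio of 0.50. The genes of the complex named next were picked because they did not follow it. The activation marker Cd69 (121 against 132 CPM), Clec2i (21.2 against 23.2 CPM) and Gabarapl1 (17.7 against 15.3 CPM), also in the complex, differed by less than 1.5-fold. Ly49 and NKG2 genes are close copies, and reads could be split among them.

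Of 9 other NK receptor genes, 8 were higher and 1 lower (7 and 1 of 8). Cd160, a glycolipid-anchored receptor for HVEM, was at 371 CPM at 0 h, 196 and 167 CPM at 24 h without and with MDSCs, and 82.7 CPM at 72 h, against 25.3, 28.6, 27.5 and 38.4 CPM. Cd244 (2B4) was at 42.5 against 0.97 CPM, from 12 cells, and Slamf7 at 62.5 against 11.9 CPM. The lower gene was Slamf6, a receptor of less differentiated T cells, at 15.3 against 61.3 CPM.

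Among adaptors and kinases of ITAM signalling, 5 of 13 genes were higher and 1 was lower (2 and 1 of 10), and the median log2 ratio was 0.46. Hcst, which encodes DAP10, the adaptor of NKG2D, was above 0 in 57 cells and at 634 against 298 CPM, higher in 4 of 4 libraries. Tyrobp, which encodes DAP12, was found in 6 cells, 3 at 0 h and 3 at 72 h, and reached 37.7 against 1.02 CPM. Lat2, the linker NTAL, was at 44.8 against 0.46 CPM in 16 cells, and Syk, the kinase that binds ITAMs in NK and B cells, was at 0 in all 61 and above 0 in just 13 of the 13568 others. Of 11 inhibitory adaptors, 4 were higher, among them Dok2 (82.5 against 28.8 CPM), the phosphatase gene Ptpn22 (94.3 against 41.4 CPM) and Sla2 (90.8 against 46.3 CPM). The T cell receptor and CD8 list split evenly, with 4 of 13 higher and 4 lower. Cd5, which dampens T cell receptor signals, was at 28.3 against 74.9 CPM and lower in 4 of 4 libraries, and Cd6 was at 62.5 against 111 CPM.

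Summed over their lists, cytotoxic granule transcripts were at 12205 against 3088 CPM and chemokine and cytokine transcripts at 13952 against 1896 CPM. Ccl5 alone, at 11627 against 329 CPM, made up most of the chemokine and cytokine sum in the Fcer1g+ receptor+ cells. Ccl5, a chemokine stored and secreted by memory CD8+ T cells, ranged from 74 to 476 adjusted counts per cell at 0 h (median 256), from 0 to 128 at 24 h with DCs (median 35.5), from 7 to 114 at 24 h with MDSCs (median 21) and from 0 to 95 at 72 h with MDSCs (median 28). The other cells had a median of 0 in each library, and 22.2% of them were above 0 at 0 h. Every Fcer1g+ receptor+ cell of 0 h was thus high for Ccl5, and 4 cells were at 0 later, 3 of them at 72 h. Pooled, Ccl5 was 35.4-fold higher.

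Gzma, which encodes granzyme A, ranged from 0 to 117 at 0 h (median 24), from 0 to 411 at 24 h with DCs (median 7), from 0 to 112 at 24 h with MDSCs (median 11) and from 0 to 266 at 72 h with MDSCs (median 1). It was above 0 in 24 of 35, 6 of 8, 7 of 9 and 5 of 9 cells, against 3.15, 2.51, 3.71 and 15.4% of the others. Cells with and without Gzma thus occurred in every library, and the pooled level was 123-fold higher.

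Gzmb, which encodes granzyme B, was above 0 in all 61 cells. Its level was 1093 CPM at 0 h, 7676 at 24 h with DCs, 9856 at 24 h with MDSCs and 3203 at 72 h with MDSCs, against 256, 1086, 1958 and 2591 CPM. The levels were closest at 72 h, where the per-cell range of 7 to 128 (median 44) lay around the other cells' median of 35. Of 18 cytotoxic granule genes, 14 were higher and none lower (9 and none of 13). They included the killing ligand Fasl (53.1 against 1.70 CPM), Nkg7 (3327 against 966 CPM), which was outside the naming rule and chosen after its values were seen, and Gzmc, which came from 9 cells, 7 of them at 72 h.

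**Figure D3:**
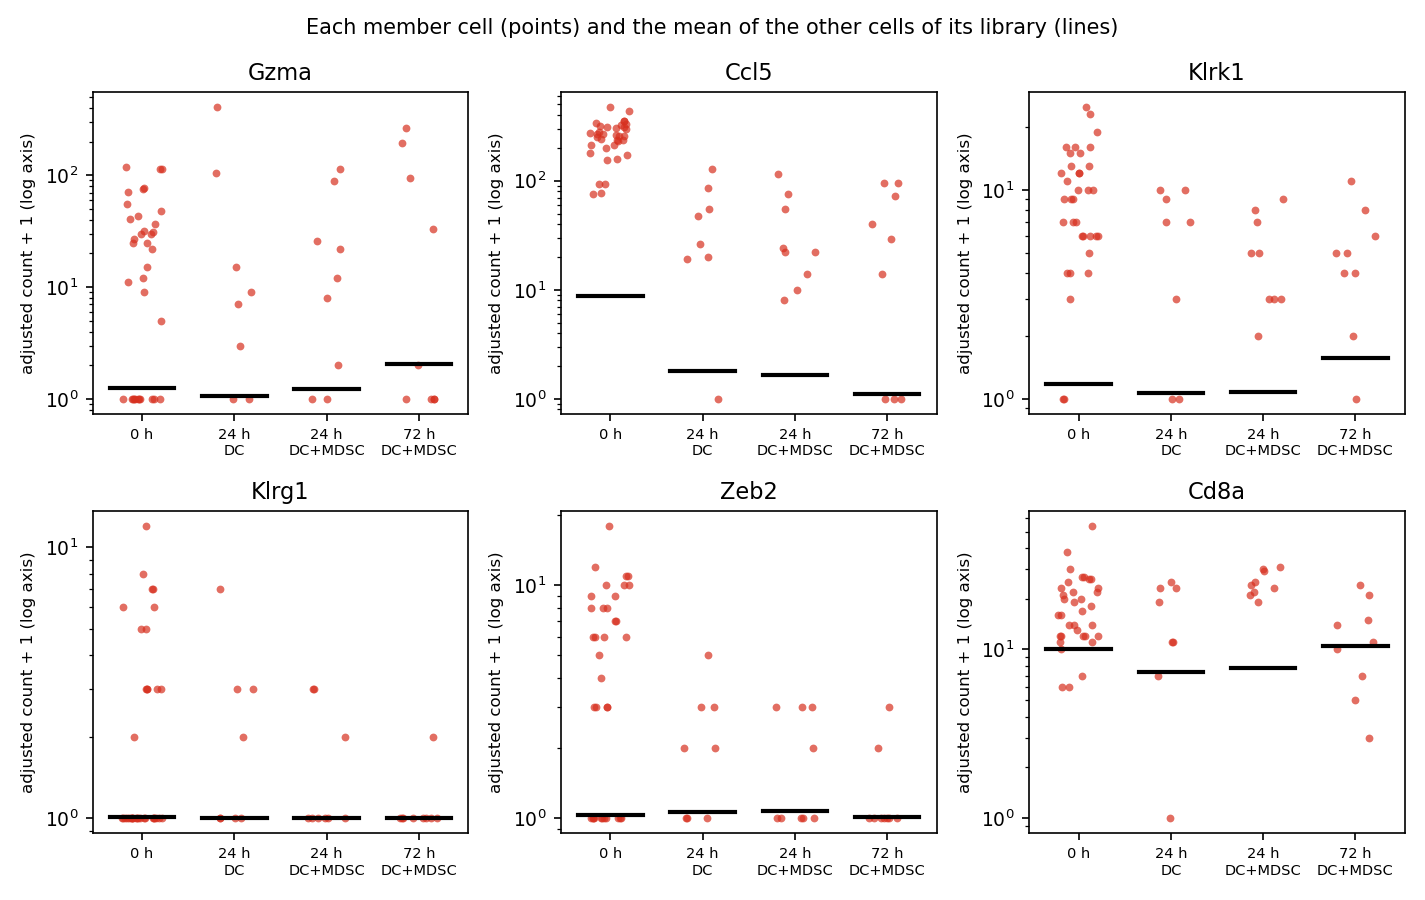
Adjusted count plus 1 (log axis) of 6 genes in each of the 61 cells (points) by library, with the mean of the other cells of that library (lines). Ccl5 at 0 h sits between 74 and 476 before 1 is added, far above the line, while Klrg1 is above 0 in 14 of 35 cells at 0 h and 1 of 9 at 72 h, and Zeb2 in 24 of 35 and 2 of 9.

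Of 12 chemokines and cytokines, 8 were higher and 2 lower (6 and 2 of 10). Ccl9 was at 138 against 5.20 CPM, from 10 cells. Ccl3 was at 264 against 104 CPM, with 64.7% of its sum in 1 cell. Il2, the T cell growth factor that newly activated cells make, was at 8.53 CPM at 24 h with DCs and 15.9 CPM with MDSCs against 718 and 357 CPM in the other cells. At 0 h its levels were 16.9 and 5.75 CPM, the opposite order.

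Of 15 innate and effector transcription factors, 11 were higher and 2 lower (7 and 2 of 11). Zeb2, which drives terminal effector differentiation with T-bet, was above 0 in 24 of 35 cells at 0 h, 5 of 8 at 24 h with DCs, 4 of 9 at 24 h with MDSCs and 2 of 9 at 72 h, and its levels were 337, 85.3, 55.8 and 22.6 CPM against 2.62, 3.76, 5.04 and 0.97 CPM. Id2, which restrains E proteins in innate and effector lymphocytes, was above 0 in 58 cells, at 529, 878, 932 and 323 CPM against 55.1, 67.6, 62.4 and 60.5 CPM. Rora was at 41.3 against 6.75 CPM. Tbx21, which encodes T-bet, was higher at 0 h (61.4 against 2.13 CPM) and at 72 h (30.1 against 5.84 CPM) but not at 24 h (25.6 against 43.8 CPM with DCs and 23.9 against 55.6 CPM with MDSCs). Eomes, the T-box factor of virtual memory cells, was at 9.43 against 14.2 CPM and at 0 in all 35 cells of 0 h. Ikzf2 (Helios) was at 22.4 against 23.9 CPM.

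Of 17 virtual and innate memory genes, 13 were higher and 2 lower (11 and 2 of 15), and the median log2 ratio was 1.61. Il2rb, the IL-2 and IL-15 receptor beta chain, was at 136, 247, 159 and 60.2 CPM in library order against 39.1, 75.6, 82.7 and 58.8 CPM, so that the levels were nearly equal at 72 h. Ly6c2, another gene chosen after its values were seen, was at 476 against 66.9 CPM. Il18rap, a subunit of the IL-18 receptor, was at 31.8 against 2.25 CPM, and Ifngr1 at 281 against 98.6 CPM.

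Naive and memory factors and receptors pointed the other way, with 14 of 19 lower, 1 higher and a median log2 ratio of -1.11. Ccr7, a lymph node homing receptor, was at 130 against 287 CPM, Satb1 at 100.2 against 243 CPM, Dapl1 at 106 against 296 CPM and Igfbp4 at 15.3 against 63.1 CPM. Lef1 and Tcf7, factors of naive cells named here after their values were seen, were at 84.9 against 193 and 111 against 230 CPM. Both were higher, not lower, in 1 of 4 libraries. Many 0 h values above 0 stood at exactly 1 in the Fcer1g+ receptor+ cells. This held for 30 of 35 cells for Satb1, 27 of 31 for Dapl1, 25 of 33 for Lef1 and 23 of 33 for Tcf7. For Ccr7 it held for 9 of 35. The IL-7 receptor gene Il7r differed by less than 1.5-fold (51.9 against 70.5 CPM). Other low genes were Il6ra (2.36 against 26.4 CPM), Actn1 (33.0 against 109 CPM), Arl5c (8.25 against 56.4 CPM), Tmem108 (9.43 against 53.0 CPM) and Pdk1 (11.8 against 56.9 CPM), a kinase that inhibits pyruvate dehydrogenase.

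Of 12 chemokine receptor and trafficking genes, 6 were higher and 4 lower (2 and 4 of 8). Cxcr6, the receptor of the membrane chemokine CXCL16, was at 123 CPM at 0 h, 290 at 24 h with DCs, 414 at 24 h with MDSCs and 97.8 at 72 h, against 21.9, 5.33, 3.81 and 1.85 CPM. Cx3cr1, the fractalkine receptor of effector memory cells, was at 50.7 against 0.82 CPM, with 10 of its 15 cells at 0 h. S1pr5, a sphingosine phosphate receptor used for exit from tissues, was at 42.5 against 0.58 CPM. Of 10 integrin and adhesion genes, 6 were higher and none lower (5 and none of 8), among them Itgb1 (138 against 28.0 CPM), Itga4 (110 against 28.6 CPM) and Itgb2 (278 against 96.3 CPM).

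The S100, annexin and galectin list had 13 of 14 genes higher, none lower and a median log2 ratio of 1.33. Lgals3, which encodes galectin-3, was at 342 against 12.5 CPM and higher in 4 of 4 libraries. S100a4 was at 288 CPM at 0 h, 145 and 31.9 CPM at 24 h and 211 CPM at 72 h, against 9.27, 0.66, 0.35 and 128 CPM. Ahnak, a large scaffold protein gene, was at 131 against 12.7 CPM. Further genes with large ratios were Kcnj8, a subunit of ATP-sensitive potassium channels (73.1 against 0.74 CPM), Fgl2 (61.3 against 1.25 CPM) and the protease inhibitor gene Serpina3g (51.9 against 1.62 CPM).

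Inhibitory and co-stimulatory receptors were mixed, with 3 of 11 higher and 7 lower. Tnfrsf9, which encodes 4-1BB, was at 65.6 against 68.7 CPM at 0 h, but at 998 against 208 CPM at 24 h with DCs, 1299 against 165 CPM with MDSCs and 293 against 117 CPM at 72 h. At 0 h all 31 Fcer1g+ receptor+ cells above 0 for Tnfrsf9 stood at exactly 1, and the median of the other cells was 1. Tnfrsf4, which encodes OX40, was at 8.53 and 0 CPM at 24 h against 160 and 112 CPM and at 0 against 62.6 CPM at 72 h. At 0 h the order was the opposite, 29.6 against 1.69 CPM, from 14 of 35 cells that all stood at exactly 1. Cd200 was at 3.54 against 34.8 CPM, Cd28 at 61.3 against 95.7 CPM, and Irf4, a factor induced by T cell receptor signals, at 10.6 against 29.3 CPM.

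Of 24 S phase genes 1 was higher and 3 were lower, and of 25 G2 and M phase genes 3 were higher and 2 lower, against 12.4% higher and 20.4% lower over all genes at that level. The 3 higher ones were Mki67, Ccnb2 and Cdc20. Mki67 was at 52.9 against 2.62 CPM at 0 h, where adjusted counts of exactly 1 were frequent in these cells: 1077 genes stood at exactly 1 in at least 50% of them. Of the 0 h cells above 0, 22 of 23 were at exactly 1 for Mki67, 25 of 25 for Ccnb2 and 21 of 22 for Cdc20. When 0 h values of exactly 1 were taken as 0, the log2 ratio of Mki67 went from 0.92 to -0.06, that of Ccnb2 from 1.34 to 0.52 and that of Cdc20 from 0.75 to -0.27. At 24 h Mki67 was at 8.53 and 7.97 CPM against 19.1 and 55.2 CPM, and at 72 h at 105 against 90.3 CPM. At 10 CPM in the other cells, interferon response genes (5 of 19 higher, 2 lower), activation genes (2 of 17 higher, 4 lower) and glycolysis genes (1 of 17 higher, 5 lower) had medians of 0.26, -0.04 and 0.02. Ifitm2 had 84.2% of its sum in 1 cell of 72 h, and its ratio is that of this cell.

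At the pooled library mix, in which 0 h weighs most, cells that met part of the rule held intermediate levels. Ccl5 was at 182 CPM in cells with none of the 3 genes, 4993 with Fcer1g only, 7336 with a receptor only, 13338 in Fcer1g+ receptor+ cells with 1 receptor and 10714 in those with both. Gzma was at 14.5, 107, 532, 2724 and 3367 CPM in the same order, and Klrk1 at 8.37, 149, 310, 508 and 516 CPM. The classes held 13274, 115, 179, 33 and 28 cells. The order did not hold in each library for Fcer1g alone: Gzma was at 151 against 4.13 CPM with none of the 3 at 0 h, but at 0 against 3.95 CPM at 24 h with DCs and at 72.8 against 69.8 CPM at 72 h, where Ccl5 was at 11.8 against 7.17 CPM. Between 1 and both receptors Gzma had no common order, at 2929 and 1669 CPM at 0 h, 1542 and 9797 at 24 h with DCs, 2460 and 894 at 24 h with MDSCs, and 3242 and 6724 at 72 h. After 0 h these classes held 2 to 7 cells per library.

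**Figure D4:**
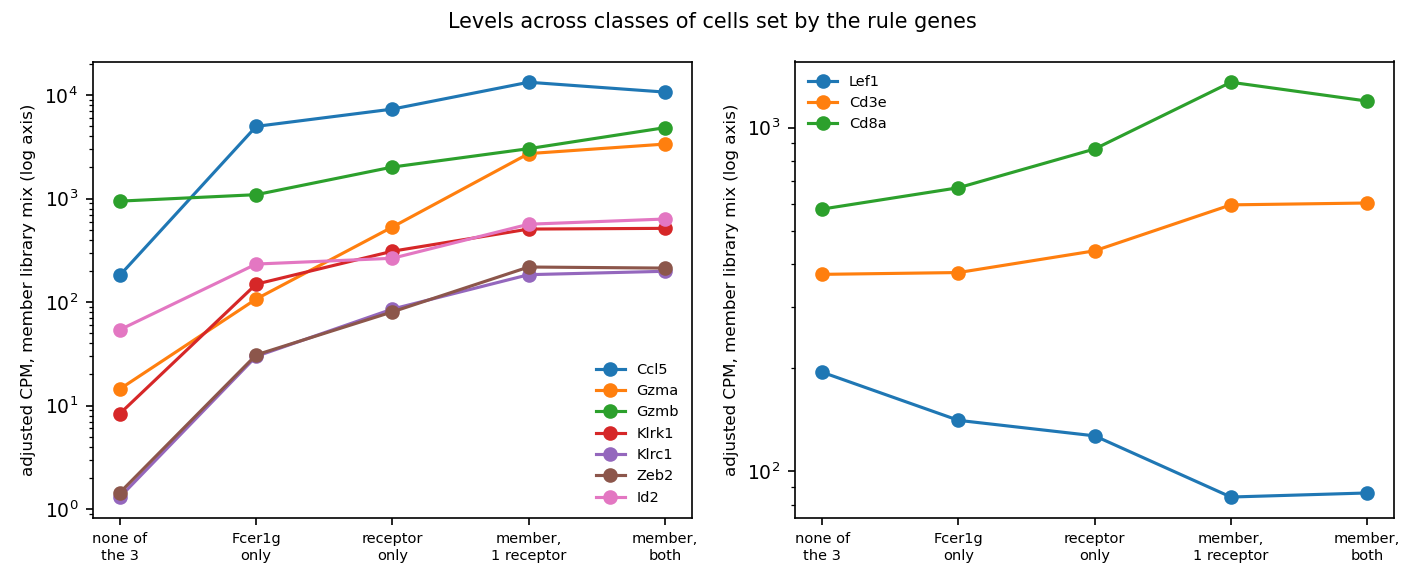
Adjusted CPM (log axis) of genes higher (left) and of Lef1, Cd3e and Cd8a (right) in 5 classes of cells, from none of the 3 rule genes to both receptors with Fcer1g, each at the library mix of the 61 cells. Gzma climbs from 14.5 to 3367 CPM, and cells with a receptor only lie between the ends at this pooled mix.

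The 35 cells of 0 h were not uniform. Gzma was above 0 in 24 of them and at 0 in 11, and the 2 kinds had median numbers of genes above 0 of 2534 and 2471. This split, and Ly6c2, Klf2, Cd7 and Xcl1 in it, were chosen after the values were seen and are a description. Klrg1 was above 0 in 14 of the 24 and 0 of the 11, and Klrb1c in 13 and 0. Zeb2 was above 0 in 19 of 24 and 5 of 11, Lgals3 in 18 and 2, S1pr5 in 9 and 1, Tbx21 in 7 and 1, and Ly6c2 in 22 and 1. The Ly6c2 level was 1140 against 39.9 CPM, and that of Klf2, which maintains recirculation, was 1628 against 452 CPM.

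The 11 cells without Gzma were higher for other genes. Cd160 was above 0 in 10 of 11 against 12 of 24, at 684 against 224 CPM. Cd7 was at 1641 against 429 CPM and above 0 in all 11. Cxcr6 was above 0 in 9 of 11 and 9 of 24, the chemokine gene Xcl1 in 5 and 2, and Ikzf2 in 4 and 0. Ccl5 did not separate them, with ranges of 74 to 437 with Gzma and 76 to 476 without, nor did Gzmb, with medians of 13.5 and 13.

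**Figure D5:**
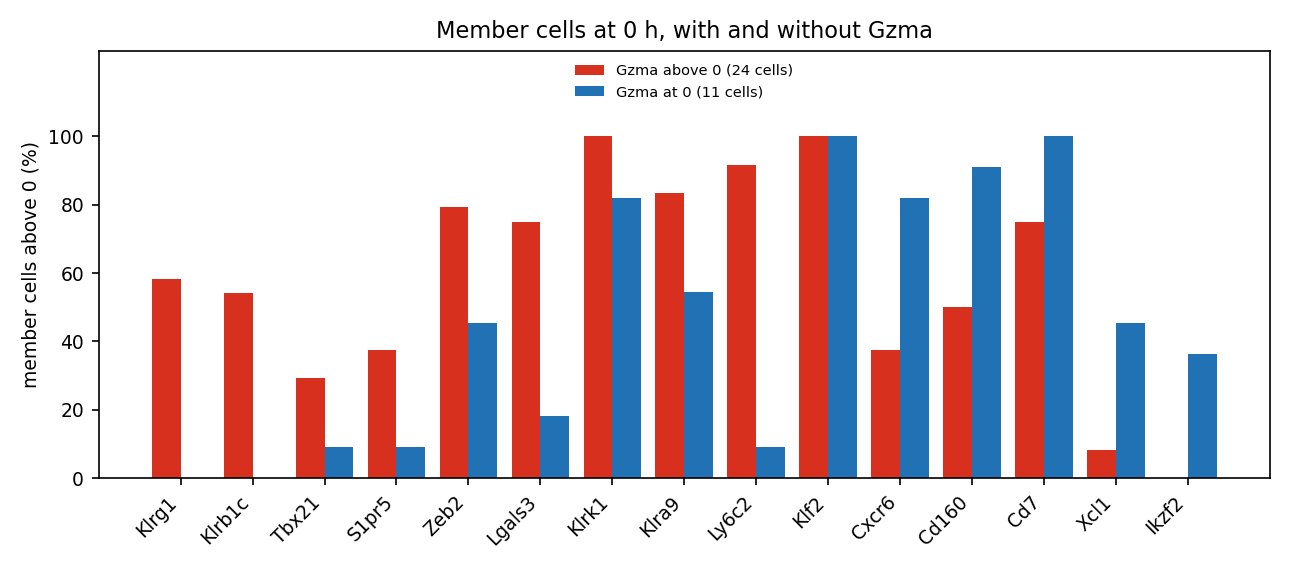
Percent of the 0 h Fcer1g+ receptor+ cells above 0 for 15 genes, with Gzma above 0 (24 cells, red) or at 0 (11 cells, blue). Klrg1 and Klrb1c have no blue bar, Ikzf2 has no red bar, and Cxcr6, Cd160, Cd7 and Xcl1 are more frequent without Gzma.

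The later cells came in groups of 8 or 9, where 1 adjusted count in 1 cell is worth 7.52 to 8.53 CPM, against 2.12 CPM at 0 h, so single low values of 24 h and 72 h carry little weight. The median number of genes above 0 was 2518 at 0 h, 2412 and 2348 at 24 h and 2280 at 72 h in the Fcer1g+ receptor+ cells, against 2208, 3585, 3623 and 3112 in the others. With the other cells weighted to the same number of genes above 0, 109 genes were higher and 25 lower. The part of gene number, RNA content and culture in the differences was not tested.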

How the data were processed

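Sorted OT-I CD8+ T cells were run as 1 10x library per condition, per the labels' protocols. The submitters' processing notes name Cell Ranger 2.0.1, Seurat and build mm10. The authors deposited natural log values that turn back into whole numbers with exp(value) - 1. The total of these whole numbers per cell was 13061 to 15988, so they are not molecule counts, sequencing depth is unknown, and neither a count model nor a doublet caller was used; doublets were not treated. Libraries were taken from the deposited cell annotation. The table of all time points held 13911 genes.

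Sums of exp(value) - 1 per 1000000 gave levels. Genes were named by ratio (the top 15 in each direction past 2-fold at 50 CPM, found in at least 10% of cells, with the 0 h sign; the top 3 per list and direction past 1.5-fold at 20 CPM) or from a fixed list of receptor, T cell and effector genes. Members and lists were chosen with earlier results of these data known. The design assumed counts; no test was run, as each group had 1 library. The contrast was tested on simulated data. Python 3.11.15, numpy 2.4.6 and scipy 1.17.1 were used. No value column was left unmapped.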

Additional observations from a re-analysis of the deposited data

How the results depend on the processing

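No paired analysis was possible because each condition had 1 library and no group shared more than 1 replicate number. Against 140 genes higher and 22 lower, other settings gave the following counts, not all of which moved by over 1.5 times. At a minimum of 20 CPM 288 were higher and 218 lower, and at 200 CPM 42 and 5. Plain pooling gave 154 higher and 26 lower, of which 93 and 6 were among these 140 and 22. Equal weights of the 4 libraries gave 133 higher and 54 lower, of which 98 and 8 were. The 0 h library alone, the only 1 with at least 10 such cells, gave 446 higher. The mean natural log value gave 5 lower, the total without ribosomal and mitochondrial genes 160 lower, and centring on the median 87 higher. Leaving out 1 library gave 159 to 200 higher, 23 to 184 lower and 26 to 53 cells; the 184 lower and 26 cells came without 0 h. The rule with Klra9 alone gave 40 cells. Without cells that had at least 2 markers of another type 19 cells remained, with 517 higher and 57 lower. Chosen after seeing the data, 0 h values of 1 taken as 0 gave 40 lower, and 4 libraries weighted equally 54. The causes were not tested.

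Of 1358 log2 ratios recomputed, 1132 moved by less than 1.5-fold, 211 by more and 15 reversed. At 0 h alone Il2 was at 1.56, Tnfrsf9 at -0.065 and Tnfrsf4 at 4.13 (-3.54, 1.93 and -1.43 pooled); Tnfrsf4 was at 0.85 in the 19 cells. Mki67 (0.92) was at -0.42 under plain pooling, -0.064 with 0 h values of 1 as 0. Under plain pooling Ccnb2 (1.34) was at -0.40 and Cdc20 (0.75) at -0.55; Cdc20 was at -0.27 with 0 h values of 1 as 0 and -0.047 with libraries weighted equally. With 1 library left out, Cdc20 ranged from -0.45 to 1.502, Mki67 ranged from -0.40 to 1.45, Ctss (-0.63) from -0.85 to 0.62 and Tbx21 (1.52) from -0.39 to 2.44, each reversed without 0 h, and Ifitm2 (2.45) from -1.34 to 2.63, reversed without 72 h with MDSCs. The cells of 24 h and 72 h were the same 26 in the authors' separate tables. With 1 library per condition and 8 or 9 cells in each later library, conditions cannot be compared beyond counting error, and depth per cell is unknown.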
